A study of Mus musculus with 2 samples.

Results

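The interleukin-6 family is described here through 9 genes measured in 4T1 tumours. Members were taken by gene symbol: the ligands Il6, Lif, Osm and Il11, the receptor chains Il6ra, Il6st, Lifr and Osmr, and the feedback inhibitor Socs3. All 9 were found, among 55357 genes in the deposited matrices. The data were 10x Genomics single-cell counts of unique molecular identifiers (UMIs, one per captured RNA molecule) from 2 libraries. 4T1 is a mouse mammary carcinoma line used as a model of triple-negative breast cancer, and the hosts were BALB/c mice. In the AptCD4-LNT group the mice received AptCD4-LNT, counted in cells, at 5000000, then 4000000, then 3000000 cells, 3 days apart. The Untreated group received PBS, and tumours were taken on day 9. The labels do not spell out AptCD4-LNT, and no genotype change or other agent is named for either group. Each library mixed 3 tumours, so there is 1 library per group and no replicate. Nothing below is a test of the treatment: 95% intervals cover counting error only, and differences between individual tumours cannot be told apart from differences between the groups.

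Family cytokines signal through receptor complexes built around gp130, the product of Il6st. IL-6 and IL-11 first bind their own alpha chains, for IL-6 the product of Il6ra, whereas LIF and OSM use complexes of gp130 with the products of Lifr or Osmr. The complexes activate JAK kinases and STAT3, and SOCS3, itself a STAT3 target, binds gp130 and limits the signal. In tumours this family is known for acute-phase-like responses, for crosstalk between carcinoma cells and fibroblasts, and for effects on myeloid cells.

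The labels call the samples tumor cells, but marker genes showed many cell types. After removal of low-quality barcodes and predicted doublets, 8627 AptCD4-LNT cells and 18216 Untreated cells remained, with a median of 8573 and 4482 UMIs per cell. Doublet calls took 2.55% of the AptCD4-LNT barcodes and 8.92% of the Untreated barcodes, and 42 barcode sequences occurred in both libraries. Clusters were named from marker lists, and 8 classes reached 50 cells in both libraries. Epithelial-like cells, which include the 4T1 cells, made up 44.5% of the AptCD4-LNT cells and 53.2% of the Untreated cells. Neutrophil-like cells were 24.7% against 16.3%, macrophage-like cells 13.96% against 18.2%, and fibroblast-like cells 9.21% against 2.90%. Unnamed cells were 2.79% and 3.71%. The 4T1 cells and the host are both mouse, so markers, not species, separate them.

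Different clusters held most of several classes in the 2 libraries. Cluster 22 (led by Arg1 and Bglap) held 56.8% of the Untreated macrophage-like cells and 4.07% of the AptCD4-LNT ones, and cluster 18 (Mmp12 and Arg1) 28.3% against 2.41%. Among neutrophil-like cells, cluster 8 held 76.5% in AptCD4-LNT and 7.09% in Untreated, and cluster 9 held 22.2% against 85.4%. Cluster 13, led by Lif, Lgals7 and Bdnf, held 25.9% of all epithelial-like cells in AptCD4-LNT but 2.41% in Untreated. Fibroblast-like cells were cluster 6 and the Acta2- and Lrrc15-rich cluster 17, with 20.1% of the AptCD4-LNT and 40.3% of the Untreated cells in cluster 17. Monocyte-like cells were 2 parts of cluster 15: a Ccr2-led part held 73.04% in AptCD4-LNT and 22.4% in Untreated, and an Ms4a4c-led part, with Osm among its leading genes, 26.96% against 77.6%. Class values of the members are therefore set beside values of these clusters where the 2 differ. Values of cluster 15 cover the whole cluster, with macrophage-like, monocyte-like and unnamed cells, also where it is counted among the macrophage clusters.

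The promoter sequences of 4 members are shown because the text returns to these genes: Il6, Lif and Il11 are the ligands with the largest whole-library differences, and Socs3 carries the STAT motif. They are RefSeq sequences of GRCm38.p6, matched by symbol, and cover the 250 bases before an annotated start, written 5′ to 3′ on the gene's strand. The deposited counts were made on GRCm39, and no coordinate is carried over between the builds. Capitals mark matches to TTCNNNGAA (STAT), GGGANNNNCC (NF-kB) or TGANTCA (AP-1), searched on both strands.
Il6, chr5:30012864-30013113, plus strand: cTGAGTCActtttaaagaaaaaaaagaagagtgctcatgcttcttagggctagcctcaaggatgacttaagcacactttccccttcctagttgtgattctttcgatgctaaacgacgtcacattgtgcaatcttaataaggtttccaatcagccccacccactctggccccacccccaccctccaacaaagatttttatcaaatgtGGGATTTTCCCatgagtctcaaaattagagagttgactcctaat
Lif, chr11:4257318-4257567, plus strand: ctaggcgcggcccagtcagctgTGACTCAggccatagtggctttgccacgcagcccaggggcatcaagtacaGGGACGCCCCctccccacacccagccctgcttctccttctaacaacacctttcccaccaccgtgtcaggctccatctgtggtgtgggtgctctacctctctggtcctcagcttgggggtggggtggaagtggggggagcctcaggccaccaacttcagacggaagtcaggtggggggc
Il11, chr7:4778142-4778391, minus strand: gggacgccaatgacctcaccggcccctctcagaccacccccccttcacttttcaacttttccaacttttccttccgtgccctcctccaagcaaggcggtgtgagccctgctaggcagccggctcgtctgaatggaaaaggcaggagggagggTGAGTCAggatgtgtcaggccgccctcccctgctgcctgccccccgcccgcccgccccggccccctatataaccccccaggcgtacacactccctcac
Socs3, chr11:117969367-117969616, minus strand: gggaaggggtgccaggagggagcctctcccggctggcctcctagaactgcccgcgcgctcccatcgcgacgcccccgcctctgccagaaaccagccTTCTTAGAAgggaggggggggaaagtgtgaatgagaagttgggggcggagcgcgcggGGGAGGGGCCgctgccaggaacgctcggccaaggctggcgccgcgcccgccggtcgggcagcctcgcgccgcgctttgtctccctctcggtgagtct
The Il6 sequence holds an AP-1 match starting 249 bases before the start, and at 44 bases before it the letters GGGATTTTCC, which overlap a match on the other strand. Lif holds an AP-1 match at 228 and an NF-kB match at 178 bases before its start, and the Il11 window an AP-1 match at 98. Socs3 was the only member whose window held the STAT letters, TTCTTAGAA at 154 bases before the start, with an NF-kB match at 97. Among 32851 windows of 300 bases (250 before and 50 after a start), 8.3% held the STAT letters, 20.7% the NF-kB letters and 7.81% the AP-1 letters. A second annotated Il11 start and the Il6st window held none of the 3. A match is a string of letters and no evidence of binding.

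Over whole libraries, 8 of the 9 genes had a higher level in AptCD4-LNT and 1, Osm, a lower level. Levels are given as counts per 1000000 (CPM), the UMIs of the gene per 1000000 UMIs of the library, class or cluster named, and differences as log2 of AptCD4-LNT over Untreated, with 1.5-fold as the size at which a gene counts as higher or lower. Il6 stood at 22.1 against 8.14 CPM (log2 1.44, interval 1.33 to 1.55), Lif at 71.8 against 26.7 (1.43), Il11 at 19.8 against 8.04 (1.30) and Lifr at 8.75 against 3.48 (1.33). Il6st was at 71.6 against 41.0 CPM (0.80), and Osm at 36.4 against 64.3 (-0.82). Those 6 genes passed 1.5-fold, 5 higher and 1 lower. Of all 19773 genes with at least 20 UMIs, 14.9% were higher and 6.95% lower by that rule. Il6ra reached 1.499-fold (31.1 against 20.8 CPM), just under the line, while Osmr (log2 0.37) and Socs3 (0.14) were well inside it. With each cell weighted equally, most of the whole-library ratios left their counting interval. Among them, the Osm difference shrank to -0.19, and that of Il6ra widened to 1.06.

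Because class proportions differed, each whole-library ratio was recomputed with 1 class mix in both libraries. The mix of clusters inside a class was not held the same. For Lif the ratio hardly moved: 1.38 with the Untreated mix and 1.40 with the AptCD4-LNT mix, against 1.43 observed. Lifr was similar (1.52 and 1.46 against 1.33). Il11 was the opposite case, with 0.37 and -0.02 against 1.30 observed. Il6 lay between, at 0.57 and 0.96 against 1.44. The higher whole-library Il11 level stood beside the larger share of fibroblast-like UMIs, 11.6% of all UMIs in AptCD4-LNT and 3.91% in Untreated. For Lif and Lifr, clusters inside the main holding class also differed in share. Cluster 13 held 25.9% of AptCD4-LNT and 2.41% of Untreated epithelial-like cells. Cluster 22 held 4.07% against 56.8% of macrophage-like cells, and cluster 18 held 2.41% against 28.3%. Without clusters 18 and 22 the macrophage-like Lifr ratio had the other sign.

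**Figure D1:**
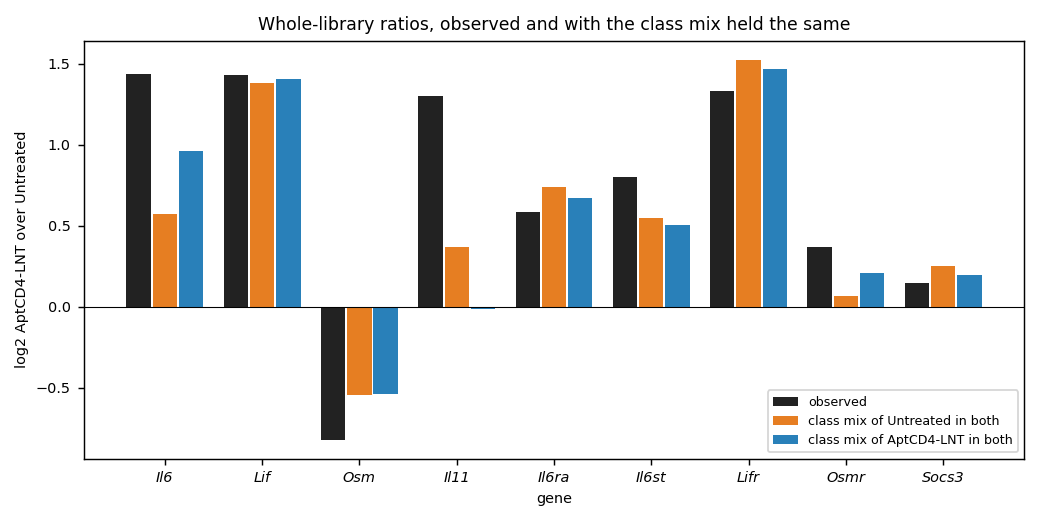
Whole-library log2 ratio of AptCD4-LNT over Untreated for each gene, as observed (black) and with the class mix of the Untreated (orange) or AptCD4-LNT (blue) library used in both. The 3 bars of Lif are near each other (1.43, 1.38 and 1.40), whereas the Il11 bars drop from 1.30 to 0.37 and -0.02.

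The ligands differed in their source classes. Fibroblast-like cells held 82.2% of the Il6 UMIs in AptCD4-LNT, but 32.1% in Untreated, where macrophage-like cells held 44.3%. Epithelial-like cells held 87.0% and 91.2% of the Lif UMIs. Il11 UMIs came from fibroblast-like cells (73.8% and 76.7%) and epithelial-like cells (23.4% and 21.5%). Osm UMIs lay in neutrophil-like cells (46.2% in AptCD4-LNT and 27.6% in Untreated), macrophage-like cells (29.7% and 56.5%) and monocyte-like cells (8.81% and 5.20%). So Lif and Il11 lay mostly in epithelial-like and fibroblast-like cells in both libraries and Osm mostly in myeloid classes, whereas the main Il6 source differed between the libraries. Without doublet removal, fibroblast-like cells led for Il6 in Untreated as well, at 35.1%.

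**Figure D2:**
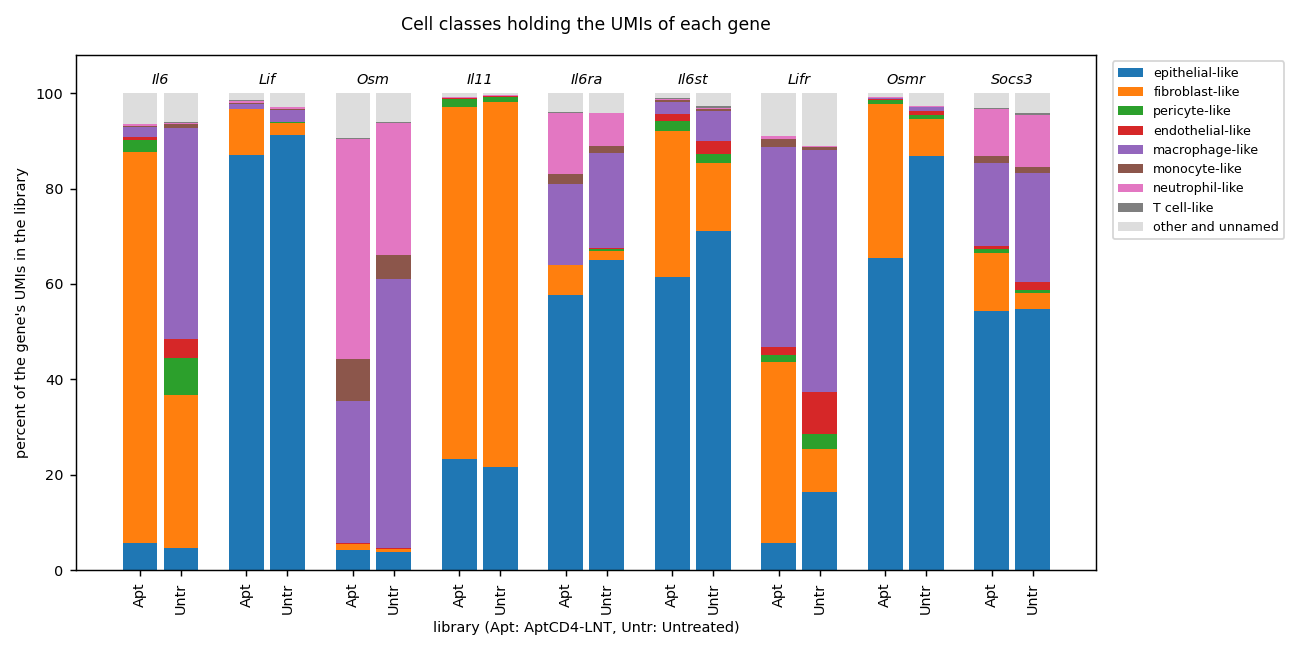
Percent of each gene's UMIs held by each cell class (colours), in AptCD4-LNT (Apt) and Untreated (Untr). The leading class is the same in both libraries for 7 of the 9 genes, and differs for Il6 and Osm.

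Receptor chains were spread differently. Most UMIs of Il6st (61.4% and 71.2%), Osmr (65.5% and 86.8%), Il6ra (57.7% and 64.9%) and Socs3 (54.3% and 54.8%) lay in epithelial-like cells, beside that class's 74.6% and 75.9% of all UMIs. Of these shares, only that of Osmr in Untreated was above the share of all UMIs. Fibroblast-like cells held 32.3% of Osmr UMIs in AptCD4-LNT and 7.86% in Untreated. Lifr differed from the other chains: its largest holder was the macrophage-like class, 42.0% and 50.8%, followed in AptCD4-LNT by fibroblast-like cells with 37.98%.

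**Figure D3:**
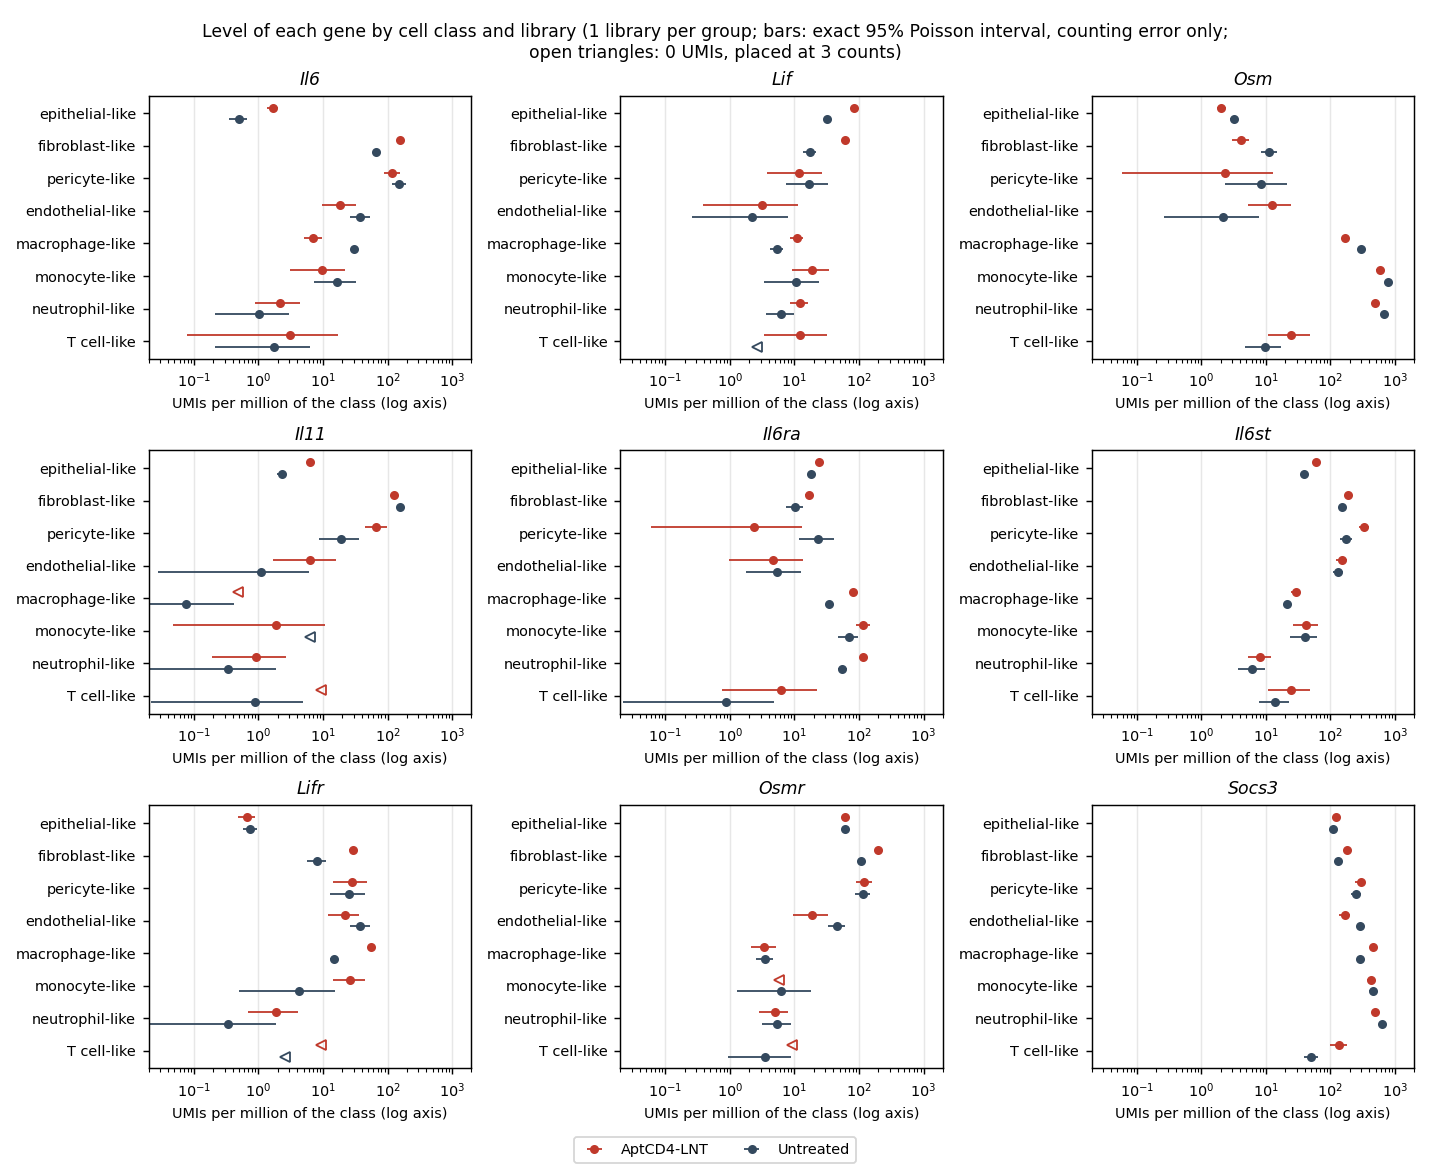
Level of each gene (CPM of the class, log axis) in the 8 classes that reached 50 cells in both libraries, AptCD4-LNT in red and Untreated in dark blue, with exact 95% Poisson intervals for counting error only. Open triangles mark classes with 0 UMIs, placed at 3 counts. Osm lies between 166 and 785 CPM in macrophage-, monocyte- and neutrophil-like cells and below 30 CPM elsewhere.

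Within classes, the members were counted among genes with at least 20 UMIs over both libraries. In epithelial-like cells 4 of 9 members were higher and 1 lower by 1.5-fold, where 9.9% of all genes were higher and 6.56% lower. The fibroblast-like class had 5 higher and 1 lower of 9, beside 10.9% and 13.5% of all genes. The macrophage-like class had 4 higher and 2 lower of 8, beside 20.8% and 8.45%. In neutrophil-like cells it was 2 higher and 0 lower of 6, beside 27.3% and 8.1%, which is close to the share over all genes. Endothelial-like cells had 0 higher and 4 lower of 5, beside 9.97% and 11.4%. Pericyte-like cells had 2 higher of 6 (18.5% of all genes higher and 14.2% lower) and monocyte-like cells 1 higher of 4 (17% and 9.71%). T cell-like cells had 2 higher of 2 (17.9% and 11.4%), and none was lower in these 3 classes. Of the 2 in T cell-like cells, Il6st rests on 8 and 16 UMIs, with an interval of -0.61 to 2.13 that includes 0. The median member ratio was 0.71 in fibroblast-like cells, where the median of all such genes was -0.02, and 0.44 against 0.06 in epithelial-like cells. It was 0.53 against 0.21 in macrophage-like cells and 0.12 against 0.22 in neutrophil-like cells. Since that all-gene median is above 0 in macrophage-like and neutrophil-like cells, their ratios are to be read relative to shifts of 0.21 and 0.22.

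**Figure D4:**
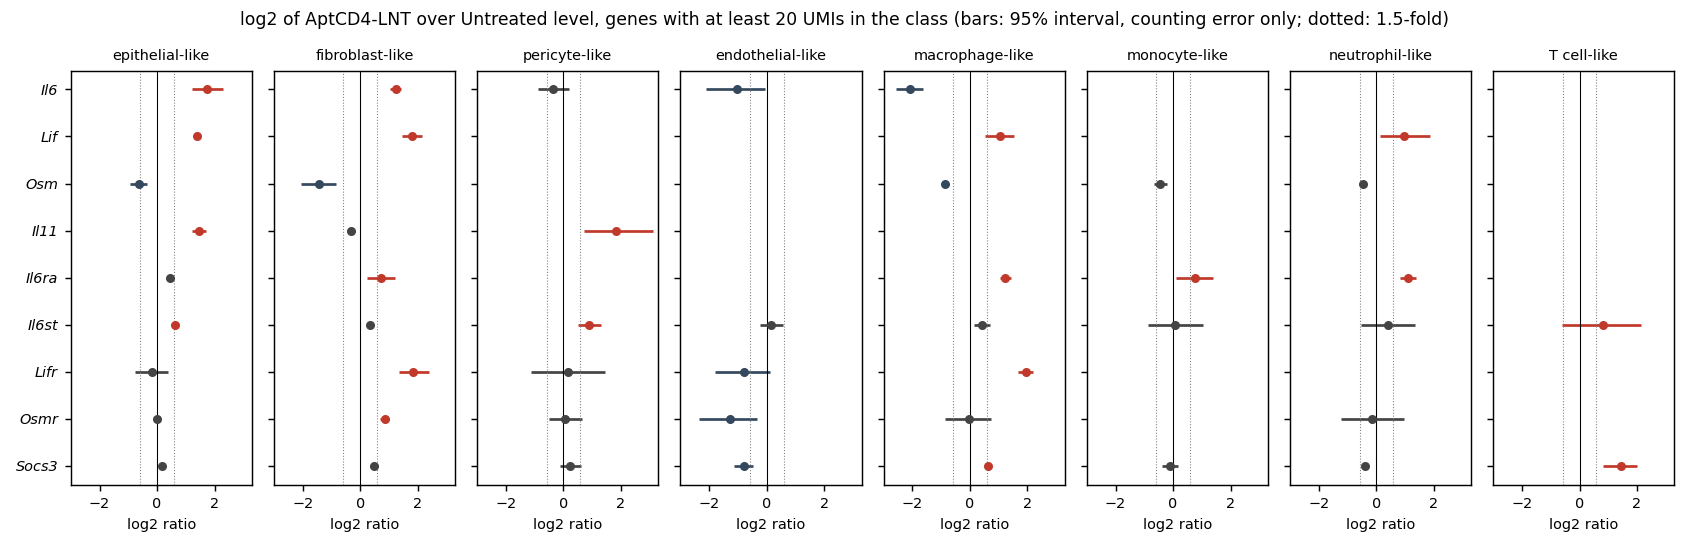
Log2 ratio of AptCD4-LNT over Untreated for each gene with at least 20 UMIs in a class, with 95% intervals for counting error only; dotted lines mark 1.5-fold, red points are higher and blue points lower. Il6 is on the right in the epithelial-like (1.74) and fibroblast-like (1.23) classes and on the left in the macrophage-like class (-2.08).

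Lif encodes leukemia inhibitory factor, a ligand of the LIF receptor complex. In epithelial-like cells it stood at 83.8 CPM in AptCD4-LNT (5934 UMIs) and 32.1 in Untreated (2730 UMIs), a log2 ratio of 1.39 (interval 1.32 to 1.45). The AptCD4-LNT level was higher in 7 of the 8 epithelial-like clusters and past 1.5-fold in 6 of them, with ratios between -0.88 and 1.33. Cluster 3 went the other way, at 14.04 against 25.8 CPM. Cluster 13 had the highest level in both libraries, 167 against 66.6 CPM, and without it the class ratio was 0.84. Thus the difference was present outside cluster 13 and smaller there. Cells were thinned to 1000 UMIs, and cells with fewer were left out of all shares at that depth. Of the epithelial-like cells kept, 7.43% in AptCD4-LNT and 2.87% in Untreated then held a Lif UMI (48.97% and 19.08% before thinning). Endothelial-like cells, at the same thinned depth, held none in 54 and 145 cells. Lif was also higher in fibroblast-like cells, at 59.9 against 17.4 CPM (log2 1.79, interval 1.44 to 2.15), and in both fibroblast clusters.

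Immediate early and dissociation stress genes, a list of 15, were also past 1.5-fold in several of these classes. In epithelial-like cells 12 were higher (median log2 0.68), beside 9.9% of all genes. Macrophage-like cells had 11 higher (0.81, beside 20.8%), and T cell-like cells 10 higher and 1 lower (0.94, beside 17.9% and 11.4%). Pericyte-like cells had 5 higher (0.37, beside 18.5%) and fibroblast-like cells 4 (0.48, beside 10.9%). Nr4a1, an orphan nuclear receptor of the immediate early response, had an epithelial-like level of 102.6 against 36.0 CPM, and Zfp36, which encodes a protein that destabilises cytokine mRNAs, one of 498.8 against 241.4. Neutrophil-like cells had 9 higher and 3 lower, beside 27.3% and 8.1% of all genes, monocyte-like cells 3 and 1, beside 17% and 9.71%, and endothelial-like cells 0 of 15 past the line. The part of these genes in the Lif, Il6 or Socs3 differences was not tested.

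Among the 8 compared classes, Il6, the family's founding ligand, was most abundant per UMI in fibroblast-like and pericyte-like cells. A small unnamed cluster, described at the end, had a higher level per UMI. Fibroblast-like cells stood at 157 CPM in AptCD4-LNT (1723 UMIs) and 66.9 in Untreated (293 UMIs), a log2 ratio of 1.23 (interval 1.05 to 1.41). The order of the first 2 classes differed between libraries: in Untreated, pericyte-like cells were highest at 152 CPM, against 119 in AptCD4-LNT, with intervals of 118.6 to 190.8 and 88.4 to 156.1 that overlap. Cluster 6 carried most of the fibroblast signal, 208 against 107.6 CPM, whereas the Acta2-rich cluster 17 had 23.6 against 11.8. The ratios of the 2 clusters alone were 0.95 and 1.0. Within cluster 6 the direction was mixed: of 13 subclusters, 2 had no Untreated cell, and of the 8 with Il6 UMIs in both libraries 4 were higher in AptCD4-LNT and 4 lower. The subcluster with most Untreated cells (13 against 125 cells, led by Hbb-bs and Thbs4) had 86.01 against 139.6 CPM, and one led by Gm20186 and Sfrp4 (115 against 26 cells) had 276.7 against 334.2. A subcluster led by Igfbp5 and Ereg had 588.6 against 23.62 CPM, from 46 and 5 cells. Thinned to 1000 UMIs, 14.1% of AptCD4-LNT and 6.48% of Untreated fibroblast-like cells held an Il6 UMI (46.67% and 21.59% before thinning), and 0.265% and 0.0212% of epithelial-like cells did.

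Macrophage-like cells showed the opposite Il6 difference, 7.11 CPM in AptCD4-LNT (44 UMIs) against 30.02 in Untreated (404 UMIs), a log2 ratio of -2.08 (interval -2.56 to -1.63). Most of the Untreated UMIs lay in cluster 18 (267 UMIs, 88.4 CPM) and cluster 22 (121 UMIs, 13.2 CPM). Those clusters had only 29 and 49 AptCD4-LNT cells, with 3 and 0 Il6 UMIs. The cluster 18 ratio, resting on 3 UMIs, was -2.15 with an interval of -4.43 to -0.58. In cluster 15, which also holds monocyte-like and unnamed cells, Il6 was 21.95 against 23.2 CPM. Cluster 11, with 39.5% of the AptCD4-LNT and 2.53% of the Untreated macrophage-like cells, had 10 and 0 Il6 UMIs (2.38 and 0 CPM). Without clusters 18 and 22 the class ratio was -0.81, although cluster 11 was not lower and the cluster 15 interval (-0.67 to 0.53) includes 0. Without doublet removal the class ratio was -1.29. Endothelial-like cells had 18.7 against 37.9 CPM (12 and 35 UMIs, log2 -1.02, interval -2.11 to -0.04).

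Il6 in epithelial-like cells was at a low level, 1.65 against 0.493 CPM (117 and 42 UMIs, log2 1.74). Fibroblast markers were higher there too: the 8 markers, all with UMIs, summed to 255.7 CPM in AptCD4-LNT and 100.5 in Untreated, against 85190 and 68290 in fibroblast-like cells themselves. Their part in the epithelial Il6 level was not tested.

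Il11, a ligand linked to fibroblast activation and bone turnover, was almost wholly a fibroblast and epithelial transcript. Fibroblast-like cells had 127 CPM in AptCD4-LNT and 158 in Untreated (log2 -0.32, interval -0.45 to -0.18), short of 1.5-fold. The 2 fibroblast clusters differed: cluster 17 held 291 against 361 CPM, and cluster 6 held 63.8 against 8.34 (506 and 21 UMIs, log2 2.94). The class ratio and the cluster 6 ratio thus have opposite signs, and cluster 17 held 40.3% of the class in Untreated against 20.1% in AptCD4-LNT. Of the 506 AptCD4-LNT UMIs of cluster 6, 247 lay in a subcluster of 83 cells, led by Il1rl1 and Serpinb2, that had no Untreated cell, and 82 lay in 1 other cell. Il11 UMIs were concentrated in few cells, with 10 cells holding 31.6% of them in AptCD4-LNT and 37.7% in Untreated, and up to 113 UMIs in 1 cell. Epithelial-like cells stood at 6.22 against 2.28 CPM (441 and 194 UMIs, log2 1.45). At 1000 UMIs per cell, 6.31% and 8.57% of fibroblast-like cells held an Il11 UMI (22.64% and 24.81% before thinning), against 0 of 1046 and 0 of 3084 macrophage-like cells. Pericyte-like cells were at 67.5 against 18.9 CPM, but 19 of their 29 AptCD4-LNT UMIs lay in 1 cell. Without the cell of each library with most UMIs the pericyte ratio was 0.65.

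Osm encodes oncostatin M, a cytokine made by activated myeloid cells. It was lower in AptCD4-LNT in each of the 3 main myeloid classes, at 495 against 678 CPM in neutrophil-like cells (log2 -0.45, interval -0.55 to -0.36), 579 against 785 in monocyte-like cells (-0.44) and 166 against 302 in macrophage-like cells (-0.86). Only the macrophage ratio passed 1.5-fold, and with no doublet removal it was -0.57. The same sign held in all 7 large myeloid clusters. The level was 521 against 756 CPM in cluster 8, 384 against 666 in cluster 9 and 448 against 694 in cluster 10. It was 126 against 221.6 in cluster 11, 361 against 492 in cluster 15, 113 against 458 in cluster 18 and 64.9 against 254 in cluster 22. Cluster 15 includes the monocyte-like cells, and clusters 18 and 22 rest on 17 and 10 AptCD4-LNT UMIs. Within the monocyte-like class the level was 555.2 against 536.8 CPM in the Ccr2-led part (log2 0.05, an interval of -0.40 to 0.52 that includes 0) and 643.1 against 848.4 in the Ms4a4c-led part (-0.40, interval -0.75 to -0.06). Of 2129 and 2975 neutrophil-like cells, only 1745 and 976 had at least 1000 UMIs. Among these, thinned to 1000 UMIs, 29.3% against 38.3% held an Osm UMI. At 2000 UMIs the shares were 54.06% and 55.84%. Without thinning the order switched, to 33.68% against 32.37%, with median depths of 1351 and 810 UMIs. Thinned to 1000 UMIs, 0.0796% and 0.308% of epithelial-like cells held an Osm UMI.

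Osm was also lower in fibroblast-like cells, 4.10 against 11.2 CPM (45 and 49 UMIs), and in epithelial-like cells, 2.05 against 3.18. Neutrophil markers summed to 433.6 CPM in AptCD4-LNT and 774.1 in Untreated fibroblast-like cells, and to 116.1 and 169.6 in epithelial-like cells, all 8 with UMIs. Their part in these low Osm levels was not tested.

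**Figure D5:**
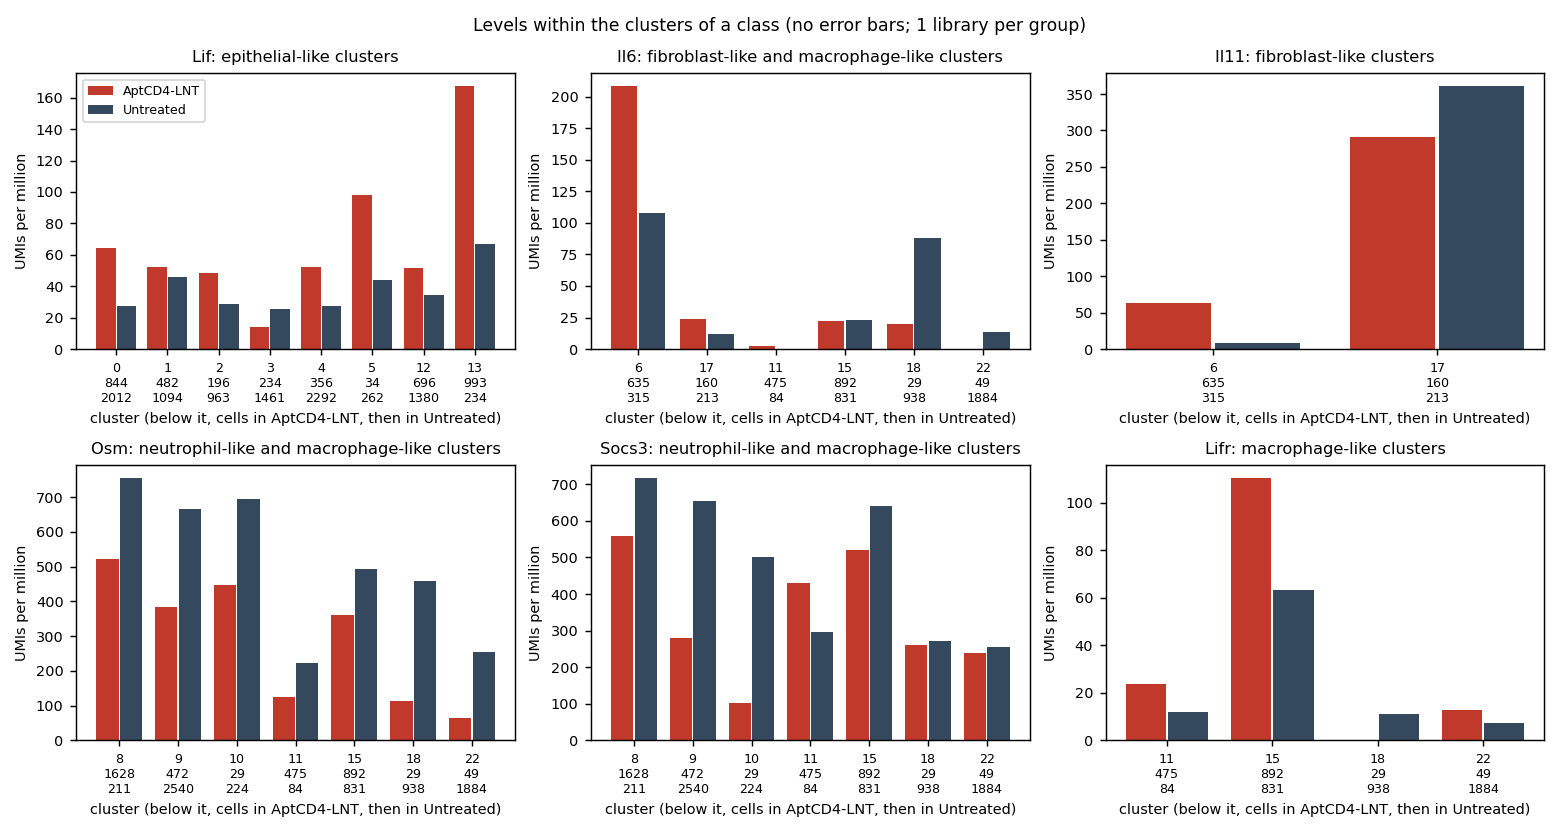
Levels (CPM of the cluster) of 5 ligand or receptor genes and Socs3 in the clusters of the classes named above each panel, AptCD4-LNT in red and Untreated in dark blue, with the cell numbers of both libraries under each cluster. Osm is lower in AptCD4-LNT in all 7 clusters shown; Il11 has opposite signs in clusters 6 and 17.

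Turning to receivers, Il6st, the shared signal-transducing chain, was broad in stromal cells and low in neutrophil-like cells. Pericyte-like cells had 331 against 177 CPM (log2 0.90, interval 0.50 to 1.31). In that class the 7 pericyte markers summed to 8029 against 3936 CPM, fibroblast markers to 13320 against 7947, epithelial markers to 607.6 against 1768 and neutrophil markers to 1671 against 2665, and their part in the Il6st ratio was not tested. Il6st stood in fibroblast-like cells at 190 against 150 CPM (0.34) and in endothelial-like cells at 149 against 133 (0.16). Epithelial-like cells stood at 58.9 against 38.5 CPM (0.61), a ratio at the line that dropped to 0.55 without cluster 13 and to 0.56 when the all-gene median was set to 0. Neutrophil-like cells had 8.04 against 6.14 CPM, and at 1000 UMIs per cell 0.688% and 0.512% of them held an Il6st UMI, against 20.1% and 15.8% of fibroblast-like cells.

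Il6ra, the alpha chain for IL-6, showed the reverse distribution, with the highest levels in myeloid classes. Neutrophil-like cells were at 117 against 54.9 CPM (379 and 161 UMIs, log2 1.09, interval 0.83 to 1.37), monocyte-like cells at 116 against 69.1 (0.75) and macrophage-like cells at 81.3 against 34.6 (1.24). The neutrophil clusters each differed by less than the class or rested on few cells: cluster 8 had 127 against 109 CPM, cluster 9 had 65.6 against 47.9 and cluster 10, with 29 AptCD4-LNT cells, 137 against 58.7. So all 3 were higher in AptCD4-LNT (log2 0.22, 0.45 and 1.23), and the intervals of clusters 8 and 9 include 0. Cluster 8 had a higher level than cluster 9 in both libraries and held 76.5% of the class in AptCD4-LNT against 7.09% in Untreated. Without clusters 18 and 22 the macrophage ratio was 0.16. Among the 1745 and 976 neutrophil-like cells with at least 1000 UMIs, 10.9% and 4.71% held an Il6ra UMI at that depth. Before thinning it was 15.27% and 5.311% of all neutrophil-like cells. At 1000 UMIs, 0 of 54 and 0 of 145 endothelial-like cells held one.

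Both chains of the classical IL-6 receptor were detected together in few cells. Among macrophage-like cells thinned to 2000 UMIs, 10 of 850 in AptCD4-LNT and 7 of 2412 in Untreated held both an Il6ra and an Il6st UMI, where the product of the single shares gives 8.63 and 6.63 cells. Among neutrophil-like cells it was 1 of 320 and 0 of 154, and the share among monocyte-like cells was 0.926% and 1.80%. Epithelial-like cells had 25 of 3703 and 21 of 9007 (product 18.6 and 26.8), and fibroblast-like cells 11 of 775 and 6 of 503. Few cells with both were thus not particular to myeloid classes. These counts give detection at that depth and no number of receiver cells.

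Osmr, the OSM receptor chain, was a stromal and epithelial transcript. Fibroblast-like cells had 194 against 108.2 CPM (2134 and 474 UMIs, log2 0.85, interval 0.70 to 0.99), with 1.85-fold in cluster 6 and a log2 ratio of 0.37 in cluster 17. Epithelial-like cells as a class differed by less than counting error, at 61.0 against 61.5 CPM (log2 -0.01, interval -0.07 to 0.05). Their 8 clusters ranged from -0.386 in cluster 13 (interval -0.625 to -0.139) to 0.561 in cluster 2 (0.352 to 0.77). The ratio was above 0 in 6 of the 8, and none passed 1.5-fold. Endothelial-like cells had 18.7 against 45.5 (12 and 42 UMIs, log2 -1.29, interval -2.35 to -0.34), a ratio of -0.27 without doublet removal. At most 6.28 CPM was seen in macrophage-, monocyte- and neutrophil-like cells. At 1000 UMIs per cell 19.8% and 9.52% of fibroblast-like cells held an Osmr UMI, against 0.669% and 0.422% of macrophage-like cells. The classes with most Osm and those with most Osmr were therefore different ones. Osmr and Il6st UMIs were seen together in 81 of 775 AptCD4-LNT and 31 of 503 Untreated fibroblast-like cells thinned to 2000 UMIs, where the product of the single shares gives 78.1 and 21.8.

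Lifr, the LIF receptor chain, was low in epithelial-like cells, the main Lif source, at 0.663 against 0.752 CPM (47 and 64 UMIs). Macrophage-like cells had 56.4 against 14.7 CPM (349 and 198 UMIs, log2 1.94, interval 1.68 to 2.20) and fibroblast-like cells 28.8 against 7.99 (316 and 35 UMIs, log2 1.85, interval 1.34 to 2.40). Lifr was higher in AptCD4-LNT in both fibroblast clusters, by 2.05 in cluster 6 and 1.19 in cluster 17. Of the macrophage clusters, cluster 15 had 111 against 63.2 CPM and cluster 11 had 23.8 against 11.9, while clusters 18 and 22 held 11.2 and 7.23 CPM in Untreated. Without those 2 clusters the class ratio had the other sign, -0.35, although clusters 11 and 15 each had a higher AptCD4-LNT level. Cluster 11, which has less Lifr than cluster 15, held 475 AptCD4-LNT and 84 Untreated cells. Thinned shares were 7.93% and 2.20% of macrophage-like cells (20.27% and 5.368% before thinning) and 0.0531% and 0.117% of epithelial-like cells. Endothelial-like cells had 21.8 against 37.9 CPM, with an interval of the log2 ratio that includes 0 (-1.81 to 0.13). The highest level per UMI was in plasmacytoid dendritic cell-like cells, 701 against 221 CPM, from 7 and 12 cells with 23 and 4 UMIs. T cell-like cells held 0 Lifr UMIs in either library.

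Socs3, the inhibitor that binds gp130, was abundant in all myeloid classes. Neutrophil-like cells had 491 against 639 CPM (1588 and 1875 UMIs, log2 -0.38, interval -0.48 to -0.28), monocyte-like cells 420 against 452 (-0.11) and macrophage-like cells 450 against 292 (0.62, interval 0.55 to 0.69). All 3 neutrophil clusters had the lower level in AptCD4-LNT: 558 against 718 in cluster 8, 279 against 654 in cluster 9 and 101 against 503 in cluster 10. The macrophage ratio had the other sign without clusters 18 and 22 (-0.39), and was 0.36 with each cell weighted equally. Its largest AptCD4-LNT cluster, cluster 11, had 430 against 296 CPM, and cluster 15 had 520 against 642. No single direction therefore holds for Socs3 across the macrophage clusters. Outside myeloid cells, epithelial-like cells stood at 123 against 110 CPM (0.16) and fibroblast-like cells at 180 against 130 (0.47), both inside 1.5-fold. Endothelial-like cells had 166 against 289 (107 and 267 UMIs, log2 -0.80, interval -1.14 to -0.47). T cell-like cells had 135 against 50.4 (44 and 58 UMIs), with 16 of the 44 in 1 cell.

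In endothelial-like cells the lower levels of Il6, Osmr, Lifr and Socs3 stood beside a difference in fibroblast markers, which summed to 2586 CPM in AptCD4-LNT and 101.9 in Untreated, while the endothelial markers themselves summed to 7670 and 7648. The class had 55 and 153 cells, and the part of the fibroblast RNA was not tested.

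Other genes of the pathway were read from lists, with the same 1.5-fold rule. Among 8 other family ligands, 3 had enough UMIs in fibroblast-like cells, with 1 higher and 1 lower, beside 10.9% and 13.5% of all genes. Their median log2 ratio in that class was -0.12. Clcf1, which encodes a ligand of the CNTF receptor complex, was higher there, at 14.03 against 6.85 CPM (log2 1.03), and in both clusters (0.97 in cluster 6 and 1.13 in cluster 17). Il11ra1, the alpha chain for IL-11, had a fibroblast-like level of 316 against 131 CPM (1.27) and an epithelial-like level of 8.19 against 8.01. Its ratio was 0.98 in cluster 6 and 1.66 in cluster 17. The fibroblast class thus held both Il11 and its alpha chain.

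Of 11 JAK, STAT and adaptor genes, the neutrophil-like class had 5 higher in AptCD4-LNT (beside 27.3% of all genes), the macrophage-like class 3 (20.8%), the fibroblast-like class 2 (10.9%) and the epithelial-like class 0 (9.9%). The macrophage share is near that of all genes. Stat3 itself was short of that line in the last 3 of these classes, with 151 against 132 CPM for epithelial-like cells, 196 against 180 for fibroblast-like cells and 190 against 145 for macrophage-like cells. In neutrophil-like cells Stat3 stood at 348 against 225 CPM (0.63), where the median of all genes was 0.22. In neutrophil clusters 8 and 9 alone the Stat3 ratio was 0.33, short of 1.5-fold.

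Of the inhibitors other than Socs3, 3 of 9 were higher and 3 lower in macrophage-like cells, beside 20.8% and 8.45% of all genes. In neutrophil-like cells 3 of 7 were higher and 2 lower, beside 27.3% and 8.1%. Socs1, a feedback inhibitor of interferon signalling, was at 85.7 against 393.2 CPM in neutrophil-like cells (-2.20) and 19.9 against 68.2 in macrophage-like cells (-1.78). It was lower in all 3 neutrophil clusters (-2.30, -2.49 and -3.46 in clusters 8, 9 and 10) and in all 4 macrophage clusters, with ratios from -2.35 to -1.29. Socs2 and Cish, known targets of STAT5, were also lower: Socs2 at 5.01 against 73.9 CPM in macrophage-like cells (-3.88), and Cish at 3.40 against 16.2 there (-2.25). Socs2 was lower in each of the 4 macrophage clusters, from -2.74 to -2.21, with 2 AptCD4-LNT UMIs each in clusters 18 and 22. For Cish, only the cluster 15 interval leaves out 0 (-2.55 to -0.08). In neutrophil-like cells Cish had 3 UMIs against 120, a log2 ratio of -5.46 with an interval of -7.76 to -3.88. The phosphatase gene Ptpn6 was higher in neutrophil-like cells, at 203.5 against 79.1 CPM (1.36), with 1.26 in cluster 8, 0.16 in cluster 9 and 0.23 in cluster 10. None of the 9 inhibitors passed 1.5-fold in epithelial-like cells.

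STAT3 target and acute-phase genes did not differ as a block. Of 18, the counts higher and lower were 3 and 1 in epithelial-like cells, 6 and 2 in fibroblast-like cells, 5 and 6 in macrophage-like cells, and 6 and 1 in neutrophil-like cells. The 6 lower in macrophage-like cells stand beside 8.45% of all genes, and the 6 higher in fibroblast-like cells beside 10.9%. The counts higher in neutrophil-like and macrophage-like cells are near the 27.3% and 20.8% of all genes. Saa3, an acute-phase apolipoprotein, stood at 2645 against 534.9 CPM in fibroblast-like cells (2.31, interval 2.25 to 2.37) and Tnfaip6, a hyaluronan-binding protein gene, at 902 against 481 (0.91). The Saa3 ratio was 1.84 in cluster 6 and 5.19 in cluster 17, and that of Tnfaip6 0.49 and 2.57. Lcn2, an iron-siderophore-binding acute-phase protein gene, went the other way, at 101 against 231 CPM in fibroblast-like cells (-1.19), 1290 against 2043 in epithelial-like cells (-0.66) and 25.1 against 79.6 in macrophage-like cells (-1.67). It was lower in both fibroblast clusters (-1.48 and -0.66) and in all 4 macrophage clusters (-2.22 to -0.80). Bcl6, a transcriptional repressor gene, was higher in neutrophil-like cells, 53.5 against 12.96 CPM (2.05), and in macrophage-like cells, 33.3 against 10.1 (1.72). Its ratio was 1.62 in cluster 8 and 1.73 in cluster 9, and 1.08 to 1.72 in the macrophage clusters, where the intervals of clusters 18 and 22 include 0. Cebpb, the most abundant gene of the list in both myeloid classes, was at 10120 against 12840 and 1755 against 2819 CPM. It was lower in AptCD4-LNT in each of the 3 neutrophil and 4 macrophage clusters.

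Across 22 class-by-library profiles of 12 classes, the genes most like each member were found by Pearson's r of log2(CPM + 10) among 13949 genes. These profiles share libraries, depth and class markers, so r is a description. For Il6 they were Serping1 (r 0.90), Tbx3 and Adgra2. Lif had Rab27b (0.78), Ago2 and Eml5. Osm was closest to Rab20 (0.95) and Sirpb1b, and Il11 to Gpr153 (0.99), C1qtnf2 and Gm44416. Among receptors, Il6ra was closest to Rab32 (0.89), Lst1 and I830077J02Rik, Il6st to Plat (0.92), Ebf1 and Csrp1, Lifr to Lipa (0.82), Mef2c and Gna12, and Osmr to Il17rc (0.97), Cdc42ep5 and Parva. Socs3 was closest to Ifnar2 (0.86), Card19 and Sdcbp. Lif had the lowest leading r of the 9, so no other gene followed its profile as closely as others followed Il11, Osmr or Osm.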

How the data were processed

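The deposited matrices hold raw UMI counts per gene and barcode, made with Cell Ranger 7.2.0 on GRCm39 per the submitters' processing notes; library construction followed the 10x Genomics protocol per the labels. The libraries held 8931 (AptCD4-LNT) and 20040 (Untreated) barcodes with 98968100 and 131295224 UMIs. Barcodes with under 200 genes or over 20% mitochondrial UMIs (78 and 39) and Scrublet doublets (226 and 1785; 7.14% and 16.0% were expected from the barcode numbers) were left out. Cells were clustered with scanpy 1.11.5 (2000 variable genes without the members and without list genes that mark no class, 30 components, 15 neighbours, Leiden resolution 1), and mixed clusters were clustered again. Clusters were named from marker lists, with at least 3 markers at 20 CPM, and a margin of 0.75 over the next class. These naming rules were settled after the clusters were seen, the bar on other lineages after 2 clusters had been named epithelial, and shares may depend on the rebuilt names. Names such as epithelial-like rest on markers only.

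UMIs were summed per class and library. Level intervals are exact Poisson, ratio intervals conditional binomial and share intervals Clopper-Pearson, all at 95% and for counting error only, since PCR and capture are not covered; a count of 0 allows up to 3 counts. On Poisson counts simulated for 8 classes, the true ratio lay inside its interval for 95.5% to 96.7% of genes. The intervals assume that same model, so the simulation cannot show how they hold where UMIs gather in few cells, as for Il11. With 1 library per group no test between groups was made. The members and lists were chosen with earlier results of these data known, as were the class ratios singled out for the alternatives. Named list genes are up to 4 per list and class with the largest ratio, and the most abundant one. Free RNA gives low counts in every class and was not removed. Without a stated strand setting, reads of overlapping genes cannot be told apart. Alternatives changed doublet removal, filters, resolution, naming, weighting, scaling and thinning; the splits by cluster were chosen after seeing the data. No promoter sequence was at hand for Osm. Some results for genes that are no members are not reported here.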

Additional observations from a re-analysis of the deposited data

Results flagged for a closer look

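Il6, Osmr and Socs3 were past 1.5-fold higher in AptCD4-LNT in one class and past 1.5-fold lower in another, with counting intervals that leave out 0; with 1 library per group the difference between classes was not tested. For Il6, the gene of the family's founding cytokine, the log2 ratio was 1.74 in epithelial-like and 1.23 in fibroblast-like cells, against -1.02 in endothelial-like and -2.08 in macrophage-like cells. For Osmr, the OSM receptor chain, it was 0.84 in fibroblast-like cells and -1.29 in endothelial-like cells. For Socs3, the feedback inhibitor, it was 0.62 in macrophage-like and 1.43 in T cell-like cells, against -0.8 in endothelial-like cells. The macrophage-like Socs3 ratio had the other sign without clusters 18 and 22, and was inside 1.5-fold with the all-gene median set to 0. A large part of the T cell-like Socs3 UMIs in AptCD4-LNT lay in 1 cell. The endothelial-like Osmr ratio was inside 1.5-fold without doublet removal.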

How the results depend on the processing

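Counts over all members stayed within 1.5 times their main value under the alternatives run. Of 49 gene and class pairs 28 passed 1.5-fold, and 24 to 28 did under the alternatives. Over all genes with at least 20 UMIs, 9.9% to 27.3% were higher and 6.56% to 14.2% lower, depending on the class. The leading source class was the same in both libraries for 7 of 9 genes, and for 7 without doublet removal or 8 with classes from each cell's own markers. The share of cells with a UMI was higher in AptCD4-LNT in 31 pairs at 1000 UMIs, in 29 at 500 and at 2000 UMIs, and in 42 without thinning. The 67 list genes gave 433 gene and class pairs, to be read beside the same shares over all genes. Of these pairs 170 passed 1.5-fold, and 148 did with the all-gene median set to 0. Single ratios moved more. Lif in epithelial-like cells (log2 1.39) was 0.84 without cluster 13. Il6 in fibroblast-like cells (1.23) was 1.54 without doublet removal, 1.43 at resolution 0.5, and 0.95 or 1.0 in cluster 6 or 17 alone. Il6 in macrophage-like cells (-2.08) was -1.29 without doublet removal, -1.29 with classes from each cell's own markers, and -0.81 without clusters 18 and 22. Socs3 in macrophage-like cells (0.62) was 0.36 with cells weighted equally, 0.41 with the all-gene median set to 0, and -0.39 without clusters 18 and 22. Osm in neutrophil-like cells (-0.45) was -0.67 with that median set to 0 and -0.79 in cluster 9 alone. In 2 further cases the ratio changed sign in a part of the class: Il11 in fibroblast-like cells, 2.94 in cluster 6 alone, and Lifr in macrophage-like cells, -0.35 without clusters 18 and 22. The splits by cluster change the set of cells; the cause of the other shifts was not tested. Over single class ratios, 467 values stayed within their main interval and 61 moved outside it. A further 3 had the other sign where the main interval leaves out 0. Sign changes were not counted apart where that interval includes 0. Over whole-library ratios, 9 values stayed within their main interval and 9 moved outside it. Of the 9 that moved, 1 came with all deposited barcodes and the rest with each cell weighted equally. Depth limits classes with few UMIs, such as pericyte-, endothelial- and T cell-like cells, where members under 20 UMIs were not compared. No paired analysis was possible because each group is 1 library.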

Other observations

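One small unnamed cluster, with 7 AptCD4-LNT and 6 Untreated cells, held a large part of the ligand UMIs for its size. It was led by Ccl4, Il4, Il6, Ccl3 and Il13, and had 103 against 24 Il6 UMIs and 98 against 31 Osm UMIs, with 0 UMIs of Il6ra, Il6st, Lifr and Osmr in either library. Its Il6 level was 6343 CPM in AptCD4-LNT and 2938 in Untreated, above that of every compared class. Its 103 Il6 UMIs stand beside 2096 in the whole AptCD4-LNT library. Up to 60 Il6 UMIs lay in 1 cell of the unnamed cells. The cluster stayed unnamed because markers of another class led it, and it enters no class ratio.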
